A study of Rattus norvegicus with 24 samples.

Results

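The genes described here are 8 activity-regulated immediate early genes of the rat hippocampus: Fos (ENSRNOG00000008015), Fosb (ENSRNOG00000046667), Jun (ENSRNOG00000026293), Junb (ENSRNOG00000042838), Egr1 (ENSRNOG00000019422), Egr2 (ENSRNOG00000000640), Arc (ENSRNOG00000043465) and Dusp1 (ENSRNOG00000003977). They are 8 of the 32883 genes in the count table, were taken by identifier, and all 8 passed the filter on low counts that left 14838 genes for testing. The count table gives identifiers without names. The reference gene table at hand lists all 8 symbols but holds 0 Ensembl identifiers, so the pairing of symbol and identifier could not be checked, and neither markers of the hippocampus nor other activity-regulated genes could be looked up. The samples came from snap-frozen dissected hippocampus of male Sprague-Dawley rats and crossed training with treatment. The treatment was vehicle or corticosterone, which is the principal stress hormone of rodents. Untrained rats gave 7 libraries with vehicle and 6 with corticosterone, and trained rats gave 5 with vehicle and 6 with corticosterone, 1 library for each sample. The labels do not give the training task, the dose, the age of the rats or the time between training and tissue collection. They do not say that each sample is a separate rat either, and the p-values therefore cover just the spread from sample to sample, part of which may be technical.

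Immediate early genes are transcribed within minutes of synaptic activity, without new protein synthesis, through kinase cascades that act on transcription factors already bound to their promoters. Their mRNAs are short-lived, so their level in the hippocampus after a learning episode depends on when the tissue is taken. Fos, Fosb, Jun and Junb encode subunits of the AP-1 transcription factor, Egr1 and Egr2 encode zinc finger transcription factors, Arc encodes a synaptic protein that promotes removal of AMPA receptors from the membrane, and Dusp1 encodes a phosphatase that switches off MAP kinases. Dusp1 is also a known target of the glucocorticoid receptor, and in other settings that receptor represses AP-1. The series asks how glucocorticoids enhance memory formation, and for these genes the design asks whether their mRNA differed with training, with corticosterone or with both.

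Promoter sequences are shown for Egr1, Egr2, Dusp1 and Junb, because elements known from activity-regulated transcription could be read in them. RefSeq promoter windows, from 250 bases before to 50 bases after the annotated start on assembly GRCr8, were at hand for 5 of the 8 genes: Fosb, Junb, Egr1, Egr2 and Dusp1. Each sequence gives the 250 bases before the start, 5′ to 3′ on the strand of the gene. Capitals mark serum response elements, bound by SRF, and the cAMP response element TGACGTCA, bound by CREB, or its core TGACG on either strand. The Egr1 window is chr18:26736828-26737077 on the plus strand, that of Egr2 chr20:21054442-21054691 on the minus strand, that of Dusp1 chr10:17184603-17184852 on the plus strand and that of Junb chr19:40080876-40081125 on the plus strand.
Egr1: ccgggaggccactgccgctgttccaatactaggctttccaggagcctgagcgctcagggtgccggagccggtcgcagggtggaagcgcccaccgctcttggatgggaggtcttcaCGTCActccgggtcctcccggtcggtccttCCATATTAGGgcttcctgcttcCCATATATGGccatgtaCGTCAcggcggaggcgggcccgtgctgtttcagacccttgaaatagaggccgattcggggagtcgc
Egr2: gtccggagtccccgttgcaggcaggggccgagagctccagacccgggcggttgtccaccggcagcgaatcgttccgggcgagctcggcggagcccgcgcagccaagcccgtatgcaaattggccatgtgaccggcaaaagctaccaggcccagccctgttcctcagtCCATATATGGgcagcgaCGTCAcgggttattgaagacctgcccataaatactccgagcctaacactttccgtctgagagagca
Dusp1: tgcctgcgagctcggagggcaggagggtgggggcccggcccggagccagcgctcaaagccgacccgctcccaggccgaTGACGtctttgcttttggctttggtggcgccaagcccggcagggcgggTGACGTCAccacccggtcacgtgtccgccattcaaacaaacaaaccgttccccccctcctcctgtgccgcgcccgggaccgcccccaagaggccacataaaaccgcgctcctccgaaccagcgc
Junb: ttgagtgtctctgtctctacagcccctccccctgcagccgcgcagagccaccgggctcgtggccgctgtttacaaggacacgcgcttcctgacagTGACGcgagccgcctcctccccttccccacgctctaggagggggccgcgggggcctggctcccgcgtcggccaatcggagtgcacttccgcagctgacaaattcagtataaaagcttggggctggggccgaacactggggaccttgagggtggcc

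Egr1 held 2 matches to the serum response element and Egr2 held 1, an element found in 1.64% of 33469 promoter windows of the same length. Each of them also held TGACG on the opposite strand, at the same distance of 66 bases before the start in both, next to a serum response element that starts 83 bases before it. The full element TGACGTCA stood in Dusp1 alone among the 5 windows, 124 bases before the start, and is found in 1.83% of all windows. The core TGACG, which the full element contains, was present in 4 of the 5 windows against 21.2% of all windows, and Fosb, which had neither this core nor a serum response element, is not printed. For the glucocorticoid response element core TGTTCT (20.7% of all windows), the AP-1 site TGANTCA (7.33%) and the EGR sites GCGTGGGCG (0.544%) and GCGGGGGCG (2.73%), 0 of the 5 windows had a match on either strand. The TATA box TATAAA (14.2% of all windows) was found in Junb and, on the opposite strand, in Fosb. These matches are descriptions of the sequence, and counts were made on another assembly (rn6).

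Total counts in genes were between 13760331 and 16765088 per library, and the 8 genes together took 4108 to 5943 of them. Between 59.9% and 62.6% of each column was assigned to genes. The libraries differed widely in 1 gene, ENSRNOG00000016275, which had the largest loading on the first principal component of the other genes. They were split at 1000 CPM (counts scaled to library size with TMM factors) of this gene. It stood between 1748 and 4674 CPM in 8 libraries and between 5.70 and 458 CPM in 16. Among the 8 were 4 libraries of untrained rats (1 of 7 with vehicle, 3 of 6 with corticosterone) and 4 of trained rats (1 of 5 with vehicle, 3 of 6 with corticosterone). The 16 were not uniform: samples 2, 22 and 18 held 200, 271 and 458 CPM, and the others held 33.5 CPM or less. Sample 41 is untrained vehicle by its label, but its column comes after the last trained vehicle column and before the first trained corticosterone column, apart from the rest of its group. Sample 40 breaks the numbering too: it is labelled trained corticosterone, while the other sample numbers divisible by 5 (5, 10, 20, 25 and 35) are trained vehicle. Labels were followed. Results were also computed within the 16 libraries, without sample 41 and without samples 40 and 41. In whole tissue, fewer cells of a type and less RNA per cell cannot be told apart.

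For none of the 8 immediate early genes did a difference between groups pass the test. The levels of every pair of groups overlapped for all 8, and the share of all genes tested with such overlap was not computed. For corticosterone, 0 of the 8 genes passed when averaged over training (edgeR, adjusted p under 0.05), where 138 of the 14838 genes tested, or 0.93%, did. At an unadjusted p under 0.05 it was 1 of 8 (Jun), against 9.25% of all genes. For corticosterone within untrained rats 0 of 8 passed against 0.357% of all genes, and 0 had an unadjusted p under 0.05 against 6.39%. Within trained rats 0 of 8 passed against 0.162%, and 1 (Jun) had an unadjusted p under 0.05 against 7.1%. The median log2 fold change over the 8 was -0.03 for corticosterone averaged over training, with 3 above 0 and 5 below, and the median over all genes tested was 0.00. DESeq2 and limma also called 0 of the 8 in these comparisons.

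For training, 0 of the 8 genes and 0 of the 14838 tested (0%) passed, whether averaged over treatment, within vehicle rats or within corticosterone rats (edgeR). An unadjusted p under 0.05 was found for 0 of 8 against 3.27% of all genes when averaged over treatment, for 0 of 8 against 2.28% in vehicle rats and for 1 of 8 (Arc) against 6.09% in corticosterone rats. The median log2 fold change over the 8 was 0.02 averaged over treatment, with 5 above 0 and 3 below, and 0.00 over all genes. For the interaction of training and corticosterone 0 of 8 passed, 0 had an unadjusted p under 0.05, and the shares over all genes were 0% and 4.27%. DESeq2 and limma again called 0 of 8 in each of these.

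The AP-1 subunits Fos and Fosb were present at few reads. Fos had 30 to 89 reads per library and Fosb had 62 to 198. Fos ranged from 2.88 CPM over a median of 3.12 to 5.57 CPM in untrained vehicle, from 2.01 over 3.64 to 5.63 CPM in untrained corticosterone and from 2.19 over 3.05 to 5.68 CPM in trained corticosterone libraries. The 5 trained vehicle libraries (samples 5, 10, 20, 25 and 35) had 4.99, 4.43, 4.20, 4.30 and 3.02 CPM of Fos. All 4 groups overlapped, and each of the 3 larger groups had libraries both below 3 and above 5.5 CPM. The mean of Fos in untrained rats was 3.78 ± 1.06 CPM with vehicle (SD, n = 7) and 3.78 ± 1.36 CPM with corticosterone (SD, n = 6). In trained rats it was 4.19 ± 0.720 CPM with vehicle (SD, n = 5) and 3.53 ± 1.27 CPM with corticosterone (SD, n = 6). The log2 fold change of Fos was -0.12 for corticosterone averaged over training (SE 0.17, edgeR adjusted p = 0.920) and 0.02 for training averaged over treatment (SE 0.17, edgeR adjusted p = 0.999). Neither passed, and the 95% intervals reached from 0.719-fold to 1.17-fold for corticosterone and from 0.794-fold to 1.29-fold for training. The corticosterone value moved to -0.22 without sample 3, -0.20 without sample 4, -0.07 without sample 7 or 40 and -0.06 without sample 9.

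Fosb, whose splice form delta-FosB accumulates with repeated activity, averaged 6.06 ± 1.35 CPM with vehicle (SD, n = 7) and 5.53 ± 1.60 CPM with corticosterone (SD, n = 6) in untrained rats, and 6.68 ± 0.923 CPM with vehicle (SD, n = 5) and 7.18 ± 2.99 CPM with corticosterone (SD, n = 6) in trained rats. Its lowest, median and highest levels were 4.87, 5.34 and 8.62 CPM in untrained vehicle, 4.16, 5.03 and 8.35 CPM in untrained corticosterone and 4.19, 6.27 and 12.6 CPM in trained corticosterone libraries. Trained vehicle samples 5, 10, 20, 25 and 35 had 6.63, 7.19, 6.37, 7.83 and 5.37 CPM. The highest value of all 24 libraries was that of trained corticosterone sample 3, at 198 reads. Fosb had the log2 fold change with the smallest p of the 8 genes for training averaged over treatment, 0.26 (SE 0.15, edgeR adjusted p = 0.999), and it did not pass. Without sample 3 it was 0.14 (edgeR adjusted p = 0.999), and with any 1 library left out it ranged from 0.14 to 0.33. Within corticosterone rats the training difference was 0.38 (SE 0.21, edgeR adjusted p = 0.816), and it was 0.14 without sample 3 (edgeR adjusted p = 0.998). With any 1 library left out, the latter difference ranged from 0.14 to 0.53. The corticosterone effect averaged over training was -0.02 (SE 0.15, edgeR adjusted p = 0.992).

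Jun and Junb had more reads, 1283 to 1966 and 346 to 571 per library, and narrower spreads. Jun levels ran from 93.1 over a median of 101 to 105 CPM in untrained vehicle, from 83.6 over 93.4 to 114 CPM in untrained corticosterone and from 80.5 over 96.8 to 102 CPM in trained corticosterone libraries. Trained vehicle samples 5, 10, 20, 25 and 35 had 111, 98.8, 93.0, 115 and 121 CPM of Jun. Of these 5, 3 lay above every trained corticosterone library, and the other two overlapped with that group. Jun averaged 100.0 ± 4.09 CPM with vehicle (SD, n = 7) and 96.0 ± 11.9 CPM with corticosterone (SD, n = 6) in untrained rats, and 108 ± 11.6 CPM with vehicle (SD, n = 5) and 93.1 ± 9.48 CPM with corticosterone (SD, n = 6) in trained rats. Jun gave the smallest p of the 8 genes for corticosterone averaged over training: its level was 0.911-fold (95% interval 0.843 to 0.984, log2 fold change -0.14, SE 0.05), with an unadjusted p of 0.0193 and an edgeR adjusted p of 0.401, which did not pass. In trained rats alone the ratio was 0.864-fold (95% interval 0.771 to 0.967, unadjusted p = 0.0133, edgeR adjusted p = 0.568) and in untrained rats 0.960-fold (95% interval 0.865 to 1.07, edgeR adjusted p = 0.915). The difference between these effects, -0.15 on the log2 scale (SE 0.11), did not pass either (edgeR adjusted p = 0.962) and was -0.10 without sample 14. Without sample 35, 0 of the 8 genes had an unadjusted p under 0.05 for corticosterone, averaged over training or in trained rats. The smallest edgeR adjusted p-values were then 0.573 and 0.733. With any 1 library left out, the log2 fold change of Jun stayed between -0.16 and -0.11 averaged over training. In trained rats it stayed between -0.26 and -0.17. For training averaged over treatment, Jun differed by 0.03 on the log2 scale (SE 0.05, edgeR adjusted p = 0.999), so that a change beyond 1.10-fold up or 0.947-fold down lay outside its 95% interval.

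Junb averaged 26.4 ± 3.16 CPM with vehicle (SD, n = 7) and 28.05 ± 4.75 CPM with corticosterone (SD, n = 6) in untrained rats, and 27.6 ± 1.80 CPM with vehicle (SD, n = 5) and 26.4 ± 3.97 CPM with corticosterone (SD, n = 6) in trained rats. Lowest, median and highest values were 23.96, 25.02 and 32.4 CPM in untrained vehicle, 24.4, 26.2 and 37.0 CPM in untrained corticosterone and 21.5, 25.8 and 31.3 CPM in trained corticosterone libraries. Trained vehicle samples 5, 10, 20, 25 and 35 had 28.03, 26.3, 25.7, 27.7 and 30.4 CPM. The groups overlapped throughout, and the highest library was untrained corticosterone sample 4. Junb changed by 0.01 on the log2 scale with corticosterone (SE 0.07, edgeR adjusted p = 0.988) and by -0.01 with training (SE 0.07, edgeR adjusted p = 0.999), both averaged over the other factor. These intervals, 0.908-fold to 1.12-fold and 0.895-fold to 1.10-fold, were the narrowest of the 8 genes after those of Jun.

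Egr1, the zinc finger factor also known as Zif268, was read 1040 to 2121 times per library. Egr1 averaged 101 ± 9.34 CPM with vehicle (SD, n = 7) and 87.5 ± 11.1 CPM with corticosterone (SD, n = 6) in untrained rats, and 93.6 ± 15.2 CPM with vehicle (SD, n = 5) and 97.9 ± 27.7 CPM with corticosterone (SD, n = 6) in trained rats. The lowest, median and highest levels were 90.6, 96.0 and 118 CPM in untrained vehicle, 69.1, 90.6 and 102 CPM in untrained corticosterone and 64.5, 94.7 and 135 CPM in trained corticosterone libraries. Trained vehicle samples 5, 10, 20, 25 and 35 had 90.4, 117, 86.9, 76.4 and 97.1 CPM. Both the lowest and the highest of the 24 libraries, samples 33 and 3, were trained corticosterone libraries. In this group the coefficient of variation of Egr1 was 28.3%, where counting alone would give 2.52%. Corticosterone gave a log2 difference of -0.20 in untrained rats (SE 0.13, edgeR adjusted p = 0.826) and of 0.07 in trained rats (SE 0.14, edgeR adjusted p = 0.951), a difference of 0.27 that did not pass (SE 0.20, edgeR adjusted p = 0.962) and was 0.15 without sample 3. Training averaged over treatment gave 0.03 (SE 0.10, edgeR adjusted p = 0.999).

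Egr2 was the least read of the 8 genes, with 9 to 123 reads per library. Levels ran from 2.13 over a median of 2.46 to 4.21 CPM in untrained vehicle, from 0.585 over 2.10 to 3.95 CPM in untrained corticosterone and from 1.52 over 2.03 to 7.85 CPM in trained corticosterone libraries. Trained vehicle samples 5, 10, 20, 25 and 35 had 1.997, 2.76, 2.03, 1.90 and 2.22 CPM. The highest library was trained corticosterone sample 3, far above the next in its group at 2.56 CPM, and the lowest was untrained corticosterone sample 14. Egr2 averaged 2.74 ± 0.750 CPM with vehicle (SD, n = 7) and 2.24 ± 1.22 CPM with corticosterone (SD, n = 6) in untrained rats, and 2.18 ± 0.344 CPM with vehicle (SD, n = 5) and 2.97 ± 2.42 CPM with corticosterone (SD, n = 6) in trained rats. In trained vehicle libraries the coefficient of variation, 15.8%, was no larger than the 17.7% that counting alone gives, and in trained corticosterone libraries it was 81.5%. The log2 fold change of corticosterone in trained rats was 0.44 (SE 0.39, edgeR adjusted p = 0.847) with all libraries and -0.13 without sample 3 (edgeR adjusted p = 0.976). In untrained rats it was -0.29 (SE 0.36, edgeR adjusted p = 0.915), and it was -0.53 without sample 4, -0.15 without sample 7, -0.09 without sample 14 and -0.19 without sample 39. The interaction of 0.73 (SE 0.53, edgeR adjusted p = 0.962), the widest of the 8, had a 95% interval from 0.776-fold to 3.54-fold and was 0.16 without sample 3 (edgeR adjusted p = 0.999).

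Arc had 840 to 1688 reads per library. Arc averaged 73.7 ± 10.3 CPM with vehicle (SD, n = 7) and 78.7 ± 15.9 CPM with corticosterone (SD, n = 6) in untrained rats, and 75.1 ± 6.89 CPM with vehicle (SD, n = 5) and 65.8 ± 9.22 CPM with corticosterone (SD, n = 6) in trained rats. Lowest, median and highest levels were 52.7, 74.9 and 84.7 CPM in untrained vehicle, 66.5, 75.4 and 109 CPM in untrained corticosterone and 52.1, 67.9 and 77.1 CPM in trained corticosterone libraries, and trained vehicle samples 5, 10, 20, 25 and 35 had 66.5, 72.8, 82.1, 71.7 and 82.2 CPM. The top value belonged to untrained corticosterone sample 4, and every group overlapped with every other. Within corticosterone rats the trained libraries stood at 0.836-fold of the untrained ones (95% interval 0.708 to 0.986, log2 fold change -0.26, SE 0.12, unadjusted p = 0.0351), which did not pass after adjustment (edgeR adjusted p = 0.812). Without sample 4 this difference was -0.14 on the log2 scale (edgeR adjusted p = 0.780). In vehicle rats the training difference was 0.03 (SE 0.12, edgeR adjusted p = 0.9999), and the interaction of -0.29 did not pass (SE 0.16, edgeR adjusted p = 0.962) and was -0.17 without sample 4. The corticosterone effect averaged over training was -0.05 (SE 0.08, edgeR adjusted p = 0.946), and -0.11 without sample 4.

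Dusp1, the phosphatase and known glucocorticoid receptor target, had 126 to 277 reads per library. Dusp1 averaged 12.3 ± 2.29 CPM with vehicle (SD, n = 7) and 11.7 ± 2.60 CPM with corticosterone (SD, n = 6) in untrained rats, and 11.2 ± 1.99 CPM with vehicle (SD, n = 5) and 12.8 ± 3.11 CPM with corticosterone (SD, n = 6) in trained rats. Lowest, median and highest levels were 9.21, 12.2 and 15.7 CPM in untrained vehicle, 8.39, 12.9 and 13.97 CPM in untrained corticosterone and 9.07, 12.6 and 17.7 CPM in trained corticosterone libraries, and trained vehicle samples 5, 10, 20, 25 and 35 had 9.84, 14.2, 9.12, 12.1 and 10.98 CPM. No group stood apart from another. The log2 fold change of corticosterone averaged over training was 0.06 (SE 0.12, edgeR adjusted p = 0.953), with a 95% interval from 0.881-fold to 1.23-fold. It was 0.19 in trained rats (SE 0.17, edgeR adjusted p = 0.852) and -0.07 in untrained rats (SE 0.16, edgeR adjusted p = 0.961), and the difference of 0.26 did not pass (SE 0.24, edgeR adjusted p = 0.962). Without sample 3 the value in trained rats was 0.08 and the difference 0.15, and without sample 20 the former was 0.125. Training averaged over treatment gave a log2 value of 0.00 (SE 0.12, edgeR adjusted p = 0.999).

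**Figure D1:**
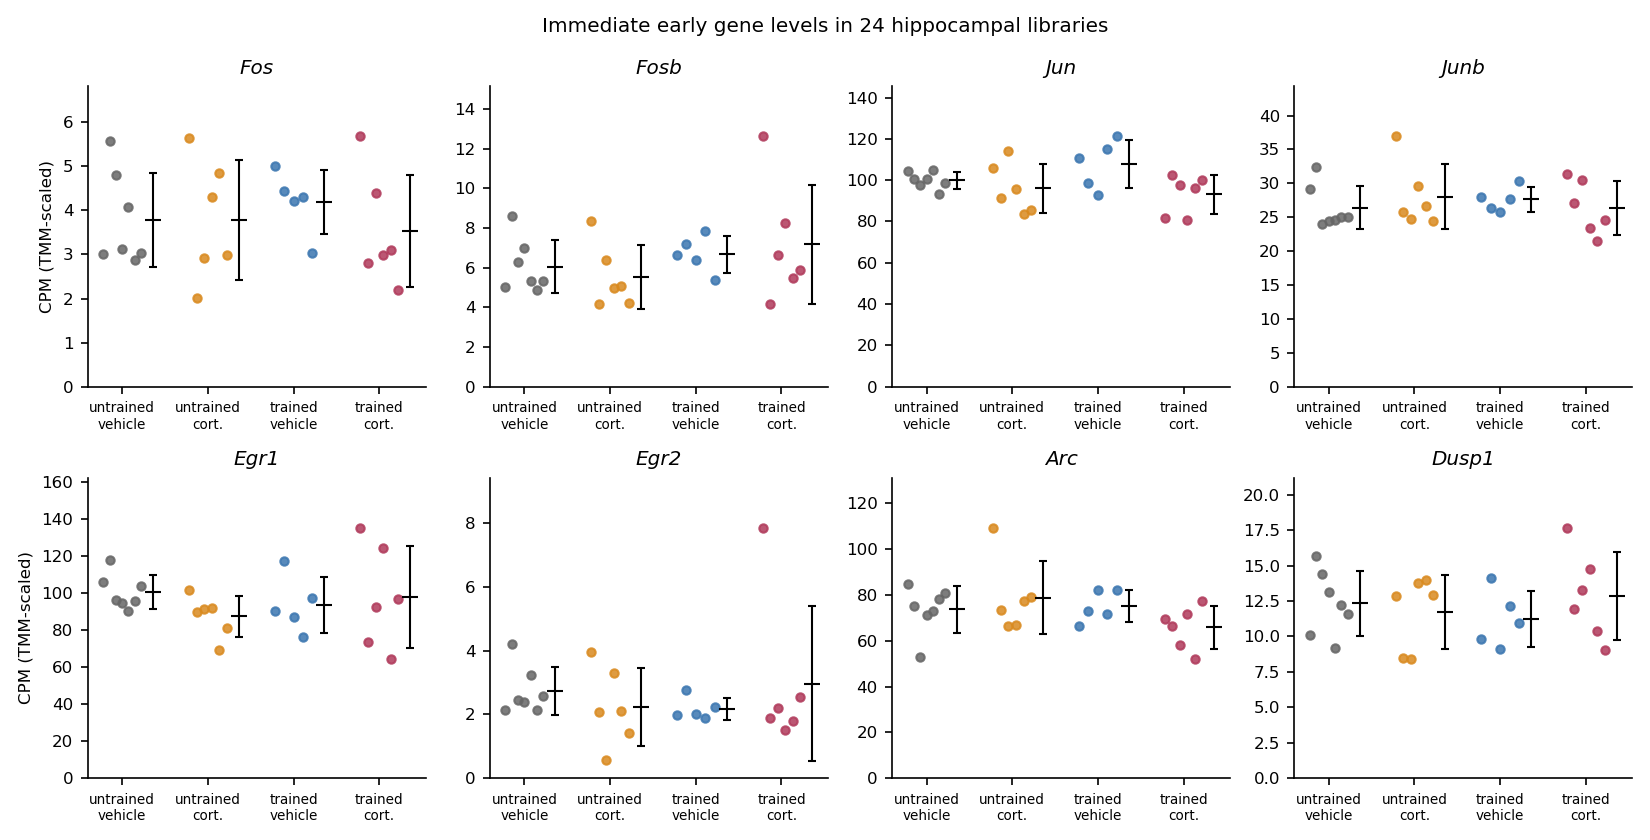
Levels of the 8 genes in CPM (TMM-scaled, linear axes from 0) in each of the 24 libraries by group, with the group mean and SD as bar and whiskers. The groups overlap for every gene, and trained corticosterone sample 3 is the highest library for Fos (5.68 CPM), Fosb (12.6 CPM), Egr1 (135 CPM), Egr2 (7.85 CPM) and Dusp1 (17.7 CPM).

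The intervals state what differences these libraries could have missed. For training averaged over treatment, the 95% interval lay within 1.5-fold in either direction for 8 of 8 genes, and 91.3% of all genes tested met the same limit. For corticosterone averaged over training it did so for 7 of 8, Egr2 being the exception at 0.722-fold to 1.54-fold, and for 90.1% of all genes. The interaction was less precise: 2 of 8 genes (Jun and Junb) had an interval within 1.5-fold, against 73.2% of all genes, and 7 of 8 had one within 2-fold. The median one-sided width of the 95% interval was 0.22 on the log2 scale for the 8 genes and 0.12 for all genes tested, for each of the effects averaged over the other factor.

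**Figure D2:**
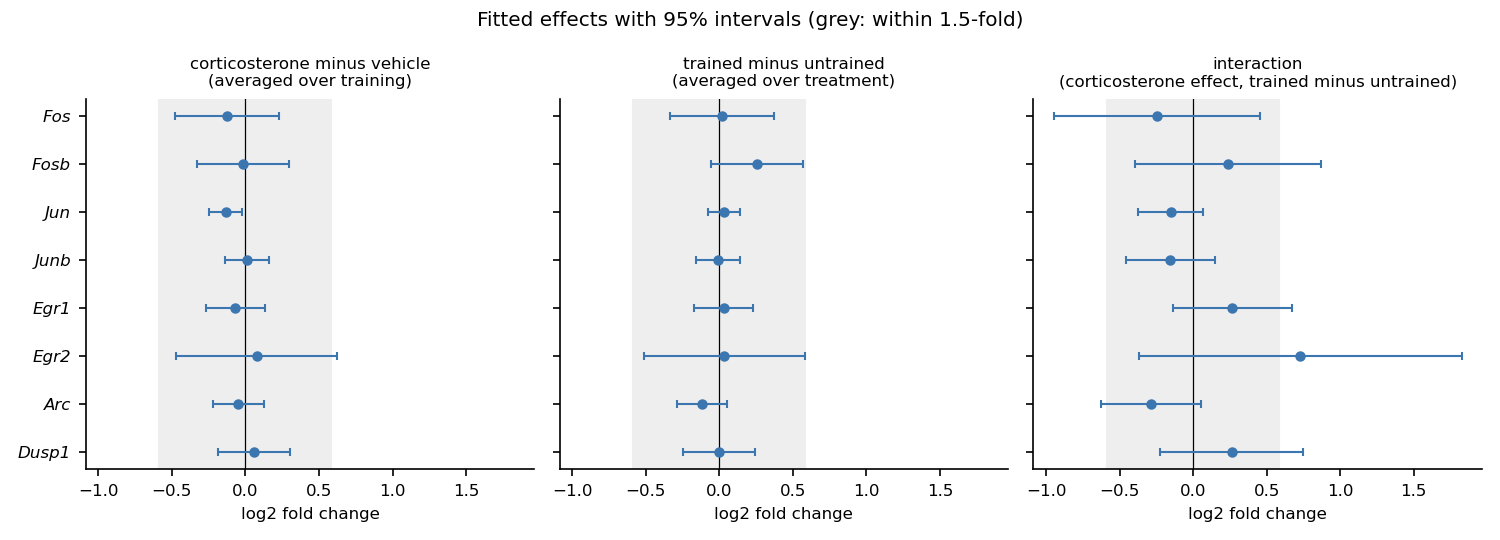
Log2 fold changes (points) with 95% intervals (bars) of the 8 genes for corticosterone, for training and for their interaction, from the edgeR fit to 24 libraries. Grey bands mark 1.5-fold in either direction. Intervals for training lie inside the band for all 8 genes, and the interval of the Egr2 interaction, from -0.37 to 1.82, is the widest.

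Most of the 8 genes were spread widely between libraries of the same group, Jun and Junb less so. edgeR's biological coefficient of variation, the spread beyond counting, was 42.1% for Egr2, 26.7% for Fos, 24.6% for Fosb, 19.2% for Dusp1, 16.7% for Egr1, 14.01% for Arc, 12.1% for Junb and 9.22% for Jun. The median over the 14838 genes was 8.69%. Since low genes vary more, each value was set beside the trend that edgeR fits against the mean level. All 8 genes lay above their trend, where 17.9% of all genes tested did. For Egr1 it was 16.7% against a trend of 8.91%, for Egr2 42.1% against 25.2% and for Arc 14.01% against 9.67%, while Jun at 9.22% against 8.81% and Junb at 12.1% against 11.7% were close to it.

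**Figure D3:**
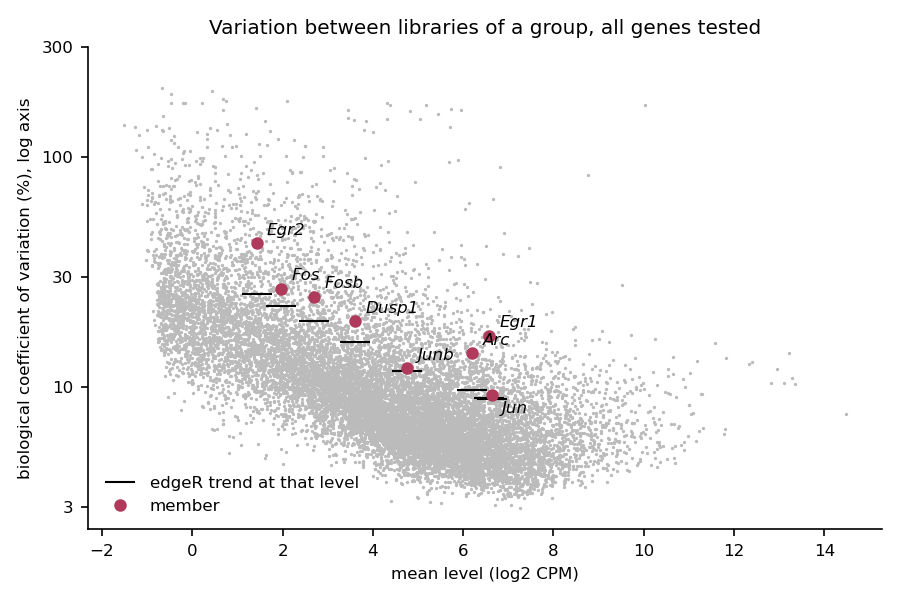
Biological coefficient of variation (percent, log axis) against mean level (log2 CPM) for the 14838 genes tested (grey), with the 8 immediate early genes in red and, as black bars, the edgeR trend at their level. All 8 lie above the trend, by least for Jun (9.22% against 8.81%) and Junb.

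High values came together in single libraries. Trained corticosterone sample 3 was the highest of its group for 6 of the 8 genes (Fos, Fosb, Junb, Egr1, Egr2 and Dusp1) and the highest of all 24 for 5 of them. Untrained vehicle sample 7 was the highest of its group for the same 6 genes. Untrained corticosterone sample 4 was the highest of its group for Fos, Fosb, Junb, Egr1, Egr2 and Arc. On average over the 8 genes, sample 4 lay 1.46, sample 3 lay 1.34 and sample 7 lay 0.968 within-group SDs (log2 CPM) above its group mean, and the next library, untrained corticosterone sample 19, lay 0.270 above. These 3 libraries come from 3 different groups. Jun did not share this in sample 3, where it stood at -1.28 SDs from its group mean. At the other end, trained corticosterone sample 33 lay at -0.925 SDs from its group mean over the 8 genes. It was the lowest of all 24 libraries for Junb, Egr1 and Arc. Sample 33 held 4226 CPM of ENSRNOG00000016275, while samples 3, 4 and 7 held 9.57, 5.70 and 22.9 CPM. The first principal component of the other genes took 32.4% of their variance within groups. On it samples 3 and 4 had the lowest scores of all 24 libraries, -0.353 and -0.295, with sample 7 at -0.0967 and sample 33 at 0.299. Samples 9, 14 and 32 held little of that gene too, at 11.9, 28.3 and 6.92 CPM. They lay at -0.657, -0.455 and -0.362 SDs over the 8 genes. Sample 28 had a score of -0.270 and lay at -0.00756 SDs. Sample 19, the next after sample 7, held 3007 CPM and had a score of 0.266. The part of the first component in the levels of the 8 genes was not tested for single libraries. How often samples 3, 4 and 7 were the highest of their group over all genes was not counted.

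**Figure D4:**
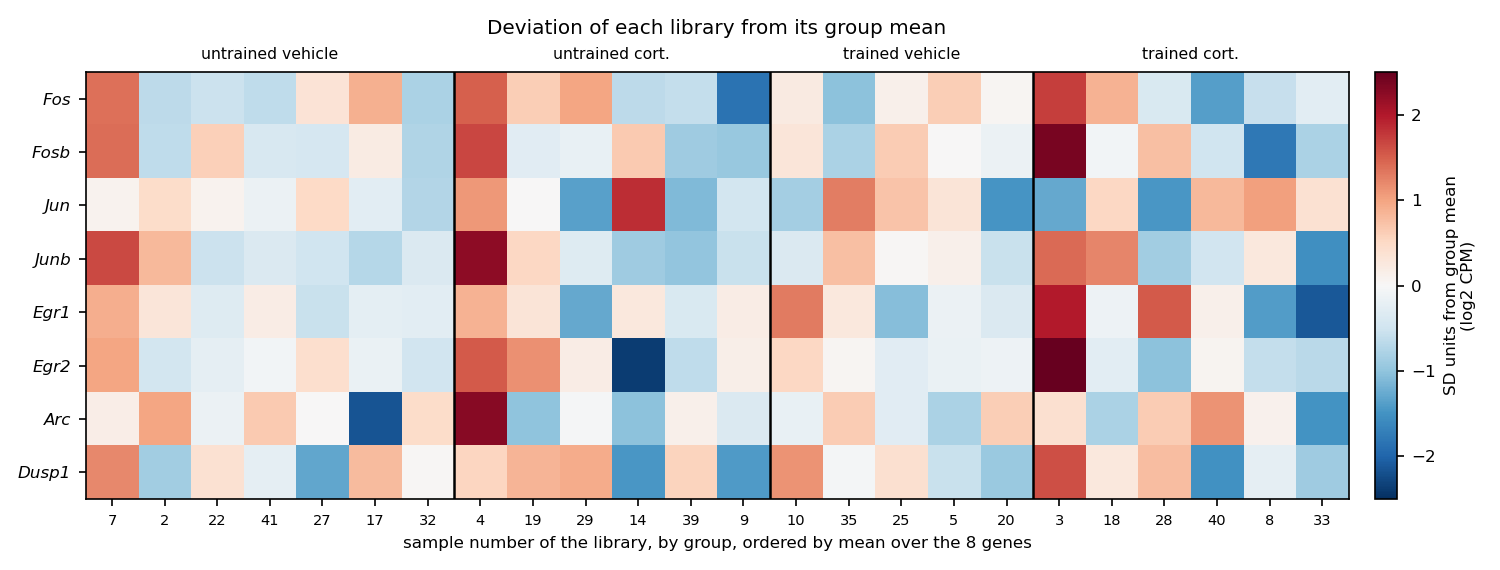
Deviation of each library from its group mean in within-group SD units of log2 CPM (red above, blue below) for the 8 genes; columns are libraries by group, ordered within a group by their mean over the 8 genes. Samples 7, 4 and 3 are red for 8, 8 and 7 of the 8 genes, the exception being Jun in sample 3.

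Correlations between the genes across the 24 libraries were computed on log2 CPM centred on the group means, for all 28 pairs, with permutation tests within groups. The median Pearson r over the pairs was 0.391, with 20 of 28 above 0. Over all pairs of the 13984 genes averaging 1 CPM or more the median was -0.00186. Of those pairs, 49.7% were above 0 and 7.17% exceeded 0.391. After Benjamini-Hochberg adjustment over the 28 pairs, 3 passed, and the share of all gene pairs that would pass was not computed. Fos and Fosb had r = 0.674 (permutation p = 0.00176, adjusted 0.0377) and Spearman's rho = 0.653 (permutation p = 0.00224). Fos and Dusp1 had r = 0.650 (permutation p = 0.00269, adjusted 0.0377) and rho = 0.653 (permutation p = 0.00217), and Junb and Egr2 had r = 0.646 (permutation p = 0.0047, adjusted 0.0439) and rho = 0.553 (permutation p = 0.0146). By rank, the first 2 of these pairs passed and the third did not (adjusted permutation p = 0.136).

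Whether pairs passed depended on single libraries. With any one of samples 3, 4, 7, 19 or 33 left out, 0 pairs passed, although the median r stayed between 0.309 and 0.405. Without the 2 libraries farthest from the median of the first-named gene, r was 0.567 for Fos and Fosb, 0.526 for Fos and Dusp1 and 0.540 for Junb and Egr2. Then 0 of 28 pairs passed after adjustment (permutation p = 0.157 at best). Dropping the extremes of a correlated gene tends to lower r in itself, so no conclusion is drawn from that count. Within the 16 libraries with little ENSRNOG00000016275, the median r was 0.443 with 24 of 28 pairs above 0, and 0 passed at that number of libraries. Samples 3, 4 and 7 are among these 16. The shares over all gene pairs were not computed there. With the first principal component of the other genes removed from all 24 libraries, the median r was 0.306 and 3 pairs passed.

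The 8 genes did not take part equally. Ranked among 14831 genes by Pearson r with the mean of the other 7, Junb was in place 2 (r = 0.795), Fosb 24 (r = 0.682), Egr2 81 (r = 0.652), Fos 306 (r = 0.582), Egr1 360 (r = 0.533) and Dusp1 786 (r = 0.470). Arc was in place 3081 (r = 0.258) and Jun in place 10542 (r = -0.196). The most negative of the 28 pairs was Jun with Dusp1 at r = -0.440 (permutation p = 0.0562, adjusted 0.153; rho = -0.438, permutation p = 0.0548; r = -0.478 without the 2 farthest libraries), which did not pass. Of the other 13976 genes averaging 1 CPM or more, the ones most like the mean of the 8 over 24 libraries were ENSRNOG00000025079 (Pearson r = 0.792, Spearman's rho = 0.565, 34.5 to 47.9 CPM) and ENSRNOG00000003846 (r = 0.791, rho = 0.691, 205 to 260 CPM). Without the 2 libraries farthest from the median of that mean, r was 0.528 and 0.657. The most opposite genes were nearly as far from 0: ENSRNOG00000032437 had r = -0.785 (rho = -0.618, r = -0.638 without the 2 farthest libraries) and ENSRNOG00000021133 had r = -0.777 (rho = -0.557, r = -0.631). All 4 were picked as the extremes of all genes, so these values carry no test.

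The 8 libraries rich in ENSRNOG00000016275 were compared with the other 16 with the groups held fixed, because they were spread unevenly over treatments. Egr1 differed by -0.284 on the log2 scale (permutation p = 0.0226, adjusted p = 0.166 over 8 genes), Fosb differed by -0.342 (permutation p = 0.0624, adjusted p = 0.166) and Arc by -0.191 (permutation p = 0.0574, adjusted p = 0.166). None of the 8 genes passed after adjustment, and the other 5 had adjusted p-values from 0.352 to 0.977. Inside the 16 libraries the first component still had r = -0.647 with Egr1 (permutation p = 0.0399, adjusted p = 0.225). With Fosb it had r = -0.529 (permutation p = 0.0842, adjusted p = 0.225). Jun, at r = 0.0117, was the 1 gene above 0, and 0 of the 8 passed after adjustment. Within the 16 libraries alone the corticosterone difference of Jun averaged over training was -0.13 on the log2 scale (edgeR adjusted p = 0.707), and 0 of the 8 genes passed in any of the 7 comparisons. Of all genes tested there, 0.316% passed for corticosterone averaged over training, 0.0673% for corticosterone in untrained rats, 0.101% for corticosterone in trained rats and 0% in the other 4 comparisons (edgeR). There the training difference within corticosterone rats was 0.62 for Dusp1 (unadjusted p = 0.00697), 0.32 for Egr1, -0.26 for Jun and -0.32 for Arc on the log2 scale, with edgeR adjusted p-values of 0.252, 0.394, 0.318 and 0.362. These 4 of 8 genes had an unadjusted p under 0.05, as had 11.9% of the 14860 genes tested in these libraries.

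The corticosterone difference within trained rats was -0.31 for Jun (unadjusted p = 0.00454, edgeR adjusted p = 0.449), 0.32 for Egr1 (edgeR adjusted p = 0.603) and 0.39 for Dusp1 (edgeR adjusted p = 0.620) in the same 16 libraries. Here 3 of 8 genes had an unadjusted p under 0.05, against 7.92% of all genes. The interaction was -0.35 for Jun (edgeR adjusted p = 0.718), 0.42 for Egr1 (edgeR adjusted p = 0.725) and 0.67 for Dusp1 (edgeR adjusted p = 0.719), again 3 of 8 genes at an unadjusted p under 0.05 against 6.76%. For training averaged over treatment it was 1 of 8 (Dusp1, 0.29, edgeR adjusted p = 0.561) against 8.44%, and it was 0 of 8 for corticosterone averaged over training (7.16% of all genes), corticosterone in untrained rats (6.09%) and training in vehicle rats (2.29%). Several of these values are over 1.5 times those of the 24 libraries. The corticosterone groups hold 3 untrained and 3 trained libraries there, samples 4 and 3 among them, and none of the 8 genes passed after adjustment. How far the make-up of the dissected tissue takes part in them was not tested.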

How the data were processed

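RNA from hippocampus was enriched for mRNA and sequenced as stranded 100-base paired-end libraries on a DNBseq platform, per the labels' protocols. The authors deposited raw counts for each gene in a single table with 24 sample columns and 0 further columns. STAR 2.7.0b, HTSeq 0.6.1, FastQC, MultiQC and build rn6 are named in the submitters' processing notes. Which annotation was counted, and whether by strand, is not given in the sources used here. Overlapping genes therefore cannot be told apart. Rows that name no gene were left out, which kept 59.9% to 62.6% of each column.

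The deposited counts were filtered with filterByExpr, scaled with TMM factors and fitted with edgeR 4.0.16 in R 4.3.3 (quasi-likelihood F-test, 4 group means, 24 libraries, 7 contrasts, Benjamini-Hochberg over 14838 genes, threshold 0.05). Intervals are 95% intervals of the fit. Levels are CPM with TMM-scaled totals; log2 CPM used a prior count of 2. Permutation tests drew 1e+05 resamples within groups, two-sided. DESeq2 1.42.0, limma 3.58.1, other scalings, filters, covariates and left-out libraries were alternatives. Scripts were tested on simulated data. All 8 members were named; like genes were the 2 with the highest r. Gene lists and cell type markers fixed by symbol could not be looked up, since 0 identifiers matched a symbol. Members and lists were chosen with earlier results of these data known.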

Additional observations from a re-analysis of the deposited data

Results flagged for a closer look

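Each group of 5 to 7 libraries was checked for a library whose gap to its nearest neighbour is a large part of the range of the group, by the 95% critical value of Dixon's test. Of 32 groups (8 genes by 4 groups) 3 had such a library, where the nominal rate of the rule is about 1 in 20. That rate holds for independent, normally distributed values. The share over all genes tested was not computed, so 3 of 32 is no excess shown for these genes. Egr2 in trained corticosterone sample 3 stood at 7.85 CPM (123 reads), with the next library at 2.56 and the lowest at 1.52 CPM, a gap of 0.837 of the range. Arc in untrained corticosterone sample 4 stood at 109 CPM (1688 reads), with the next at 79.2 and the lowest at 66.5 CPM, a gap of 0.704 of the range. Arc in untrained vehicle sample 17 stood at 52.7 CPM (856 reads), below the next at 71.4 and the highest at 84.7 CPM, a gap of 0.583 of the range; this is 1 of the 8 libraries rich in ENSRNOG00000016275, at 3064 CPM. Samples 3 and 4, with 9.57 and 5.70 CPM of that gene, are among the other 16.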

How the results depend on the processing

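No paired analysis was possible because no sample number occurs in 2 groups and the labels name no batch. Runs of 5 consecutive sample numbers hold at most 1 library of each group, several runs lack groups, and samples 14 and 41 each stand alone in theirs. As an assumed batch these runs were a term in an alternative fit. Under it, Jun no longer had an unadjusted p under 0.05 for corticosterone averaged over training (-0.14, edgeR adjusted p = 0.794) or in trained rats (-0.18, edgeR adjusted p = 0.834). In each of the 7 comparisons 0 of the 8 genes were called under every setting run, DESeq2, limma and left-out libraries included. Of 1992 refitted single-gene effects 1898 kept their sign and 94 changed it, and 0 were called; the cause was not tested. Log2 fold changes that changed sign are given below.

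Within the 16 libraries with little ENSRNOG00000016275, a setting chosen after seeing the data, corticosterone averaged over training gave 0.045 for Fos, 0.26 for Fosb and 0.11 for Egr1. Corticosterone in untrained rats gave 0.061 for Fosb and 0.046 for Jun, and in trained rats 0.13 for Fos and 0.044 for Junb. Training averaged over treatment gave -0.083 for Jun, 0.00091 for Junb and 0.29 for Dusp1, training in corticosterone rats gave 0.30 for Fos, and the interaction of Fos was 0.16. With runs of 5 sample numbers as a term, corticosterone in untrained rats gave 0.043 for Dusp1, training averaged over treatment gave -0.011 for Fos and -0.10 for Egr2, and training in corticosterone rats gave 0.000195 for Jun. Without samples 40 and 41, training gave 0.032 for Dusp1 averaged over treatment and 0.0013 for Fos in corticosterone rats. Limma-voom gave -0.15 for Egr2 (corticosterone averaged over training), library totals without factors 0.0015 for Fos (corticosterone in untrained rats), and the first component as a covariate -0.0014 for Egr2 (training averaged over treatment).

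Leaving out 1 library at a time, the corticosterone effect averaged over training ranged from -0.13 to 0.042 for Fosb, -0.039 to 0.039 for Junb and -0.21 to 0.18 for Egr2. In untrained rats it ranged from -0.15 to 0.13 for Fos, -0.0104 to 0.14 for Junb, -0.024 to 0.14 for Arc and -0.13 to 0.0073 for Dusp1, and in trained rats from -0.13 to 0.22 for Fosb, -0.049 to 0.16 for Egr1 and -0.13 to 0.57 for Egr2. The training effect averaged over treatment ranged from -0.075 to 0.0904 for Fos, -0.037 to 0.035 for Junb, -0.029 to 0.076 for Egr1, -0.25 to 0.15 for Egr2 and -0.058 to 0.039 for Dusp1. In vehicle rats it ranged from -0.039 to 0.066 for Arc, and in corticosterone rats from -0.29 to 0.043 for Fos, -0.081 to 0.011 for Jun, -0.14 to 0.00699 for Junb and -0.17 to 0.64 for Egr2.

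The number of correlated pairs, 3 of 28, was 2 by Spearman's rho, 8 without centring on groups, and 0 without the 2 farthest libraries, within the 16 libraries or without samples 3, 4 and 7 (the latter 2 settings chosen after seeing the data). Samples 3, 4 and 7 were picked as the highest over the 8 genes, so leaving them out lowers r by construction and supports nothing. Leaving out the 2 farthest libraries, the extremes of a correlated gene, tends to lower r as well. Leaving out 1 library gave 0 to 7 pairs. Depth limits Egr2 and Fos most, at medians of 34.5 and 54.5 reads. Among all genes, the count called for corticosterone averaged over training was 138, against 47 in the 16 libraries, 52 with runs of 5 sample numbers and 422 with the first component as a covariate. In untrained rats it was 53, against 10, 24 and 142 there, 87 with DESeq2, 34 without samples 40 and 41 or without sample 29, and 33 without sample 7, 39 or 41. In trained rats it was 24, against 15, 10 and 169, 60 with DESeq2, 13 with the compared groups alone and 14 without sample 10.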
